A study of Rattus norvegicus with 28 samples.

Results

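The comparison described here set the terminal ileum of breast-fed rat pups on day 4 of life against that of breast-fed pups on day 1, with 3 arrays a day and 1 pup an array. These 6 arrays were taken by their titles from a series of 28 arrays in 9 groups, and all 8740 probe sets other than controls entered. The other groups were breast-fed pups on days 2 and 3, formula-fed pups that were put under hypoxia 3 times daily, on days 1 to 4, and unfed newborns (4 arrays). All pups were newborn rats of a strain not given in the sources used here, and the breast-fed pups carried no transgene and received no agent that the labels name. The question was which genes of the suckling ileum differed after 3 further days of breast feeding.

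The ileum of the newborn rat is not yet the adult organ. Its enterocytes take up milk proteins whole through a large endocytic and lysosomal system, they absorb milk fat with the help of cytosolic fatty acid carriers, and the enzymes of solid food appear only at weaning. At birth the supply of nutrients changes from placental glucose to milk, which is rich in fat. In whole tissue, fewer cells of a type and less RNA per cell cannot be told apart.

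The arrays carried genes of small intestinal epithelium, within whole tissue of the terminal ileum. Over the 6 arrays Fabp2, Fabp1, Anpep, Cdh17, Apoa4, Slc5a1 and Fabp6, the last the bile acid carrier of the ileum, lay between the 91.0 and 99.2 percentile of all probe sets. Slc10a2, the ileal bile acid transporter, lay at the 47.2 percentile, and Vil1 had no probe set. Day 4 replicate 2 stood apart: 48 of its 757 abundant probe sets (median of the other arrays over 500) were more than 16-fold below the other arrays, against 1 and 0 on the other day 4 arrays and 0 on each day 1 array. Among the genes tested, 25 were lost in this way. The calls and the differences between regimens are given with and without that array, and other values are with it unless stated. Of 79 genes examined individually, the sign of the change turned without it in 2, Cox4i1 and Gpx1. Samples were registered in a pair of accession runs, the second of which held all 3 day 4 arrays and day 1 replicate 2. Ratios of the 3′ to the 5′ control probe sets of actin averaged 1.70 on day 4 and 1.28 on day 1 (exact permutation test, two-sided, p = 0.3, where the smallest p that 3 against 3 arrays can give is 0.1).

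Few genes passed the test, and those that did were all higher on day 4. At an adjusted p under 0.05 (limma, Benjamini-Hochberg adjustment over 3185 genes), 10 genes rose, which is 0.314% of those tested, and 0 fell. An unadjusted p under 0.05 was reached by 541 genes. The median change of all genes was 0.02 on the log2 scale with a median standard error of 0.32, so the 3 arrays a group resolved large changes only. The 10 genes rose 2.01-fold to 4.72-fold, and in each of them the day 4 and day 1 arrays did not overlap, which held for 22.3% of all genes. The count depended on single arrays: it was 3 without day 4 replicate 2 (0.0942%), 2 without day 4 replicate 1, 33 without day 4 replicate 3, 12 without day 1 replicate 1, 3 without day 1 replicate 2 and 2 without day 1 replicate 3. With the accession run as a term in the fit 2 genes were called, Itih3 and Fabp5 (limma adjusted p = 0.0346 for each). Within the second run, where day 1 is a single array, the test called 0 genes (317 at an unadjusted p under 0.05). With only the 6 arrays compared in the fit, which leaves the other groups out of the normalisation and the estimate of the spread, 9 of the 10 calls were lost.

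Itih3, a heavy chain of the inter-alpha-trypsin inhibitor family whose members bind hyaluronan in the matrix and circulate in serum, showed the largest rise. Its normalised signal was 343, 217 and 105 in the day 4 ileum of replicates 1 to 3, against 28.1, 52.7 and 30.8 in the day 1 ileum. Every day 4 array lay above every day 1 array, and day 4 replicate 3 came nearest to them. The gene rose 4.72-fold (95% confidence interval 2.87 to 7.76), with a limma adjusted p of 0.00324, and it kept a change of 2.18 on the log2 scale (adjusted p = 0.036) without day 4 replicate 2. The call was lost with only the 6 arrays compared in the fit (adjusted p = 0.134).

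Fbp1 encodes fructose-1,6-bisphosphatase, the enzyme that commits carbon to glucose in gluconeogenesis. Its signal was 839.7, 505 and 594 in day 4 ileum, against 122, 131 and 135 in day 1 ileum. The day 1 arrays were close to each other, and every day 4 array lay far above them. The rise was 4.67-fold (95% confidence interval 2.58 to 8.44) at a limma adjusted p of 0.0164, and 2.38 on the log2 scale (adjusted p = 0.0461) without day 4 replicate 2. With the accession run as a term the change was 1.90 and its adjusted p 0.125. The call was also lost without day 4 replicate 1 (adjusted p = 0.0558), day 1 replicate 2 (0.0736) or day 1 replicate 3 (0.0646).

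Fabp5 encodes a cytosolic carrier of long-chain fatty acids. Its signal was 3479, 5411 and 4432 in day 4 ileum, against 1153, 1669 and 950.1 in day 1 ileum, so that every day 4 array lay well above every day 1 array. It rose 3.56-fold (95% confidence interval 2.30 to 5.50) at a limma adjusted p of 0.00491. Without day 4 replicate 2 the change was 1.68 on the log2 scale (adjusted p = 0.0482). The call was lost with a common median in place of quantile normalisation (adjusted p = 0.122), with only the 6 arrays compared (0.119) and without day 1 replicate 3 (0.0646).

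The upstream sequences of the first 2 of these genes are shown because Itih3 and Fbp1 were also the called genes whose change differed between the feeding regimens. Each run is the 250 bases before the annotated start in RefSeq's rat assembly GRCr8, 5′ to 3′ on the gene's strand, at chr16:6123375-6123624 on the minus strand for Itih3 and at chr17:2213457-2213706 on the plus strand for Fbp1. Capitals mark matches, on either strand, to any of 5 motifs: the TATA box (letters TATAAA), the CCAAT box (letters CCAAT), the GC box (letters GGGCGG), the nuclear receptor motif (letters AGGTCA) and the E-box (letters CACGTG).
Itih3: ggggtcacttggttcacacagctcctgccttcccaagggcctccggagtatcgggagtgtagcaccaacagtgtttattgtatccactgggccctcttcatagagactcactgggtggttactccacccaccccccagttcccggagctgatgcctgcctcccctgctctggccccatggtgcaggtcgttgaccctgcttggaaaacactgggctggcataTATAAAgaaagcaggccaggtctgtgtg
Fbp1: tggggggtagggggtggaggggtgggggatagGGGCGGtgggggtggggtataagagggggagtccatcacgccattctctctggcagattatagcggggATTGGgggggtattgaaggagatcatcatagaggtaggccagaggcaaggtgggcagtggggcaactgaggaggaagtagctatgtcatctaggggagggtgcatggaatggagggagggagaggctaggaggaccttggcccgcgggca

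The Itih3 window held 1 match, a TATA box beginning 28 bases before the start. The Fbp1 window held none of that motif and instead a GC box beginning 218 bases and a CCAAT box, read on the other strand, beginning 150 bases before the start. The TATA box occurred in 12.9% of 33469 such rat windows, the CCAAT box in 34.0%, the GC box in 30.5%, the nuclear receptor motif in 14.1% and the E-box in 5.59%. Of the 10 called genes 8 had a window in the RefSeq table, and the TATA box was found in 1, the CCAAT box in 2, the GC box in 5, the nuclear receptor motif in 2 and the E-box in 0 of them. No single motif was thus shared by all of these windows.

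The other 7 genes passed the test with all arrays and not without day 4 replicate 2. Atp2a2, the calcium pump that fills the endoplasmic and sarcoplasmic reticulum, had a signal of 879, 1092 and 420.1 in day 4 ileum, against 321, 203 and 137 in day 1 ileum. It rose 3.46-fold (95% confidence interval 2.02 to 5.93), at a limma adjusted p of 0.0296, and the change without day 4 replicate 2 was 1.51 on the log2 scale (adjusted p = 0.234). Day 4 replicate 3 was the lowest of its group, little above the highest day 1 array. Actg2, the actin of enteric smooth muscle, had overlapping groups with 5499, 6191 and 3388 in day 4 ileum and 3440.3, 2760.4 and 2709.6 in day 1 ileum (adjusted p = 0.22 by limma). The summed signal of 14 smooth muscle genes was 14352 to 20512 in day 4 ileum and 13709.5 to 15906 in day 1 ileum, 0 of 14 passed the test, and the part of muscle in the rise of Atp2a2 was not tested. Its 3 other probe sets on the array had changes of 0.76, 0.17 and 0.41, smaller than the 1.79 of the probe set used.

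Trim8, a ubiquitin ligase of the tripartite motif family, had 282, 323 and 155 in day 4 ileum, against 96.9, 61.6 and 66.6 in day 1 ileum. Litaf, a protein of late endosomal and lysosomal membranes named for a response to lipopolysaccharide, had 1428, 1942 and 1162 in day 4 ileum, against 711, 516 and 463 in day 1 ileum. Capg, which caps the ends of actin filaments and is abundant in macrophages, had 242, 239.5 and 233 in day 4 ileum, against 80.3, 92.9 and 100.4 in day 1 ileum. Of these Capg had the tightest day 4 arrays, and in Trim8 day 4 replicate 3 was the lowest of its group. They rose 3.06-fold, 2.64-fold and 2.49-fold (limma adjusted p = 0.0184, 0.021 and 0.021). Without day 4 replicate 2 their changes were 1.41, 1.21 and 1.31 on the log2 scale, at adjusted p of 0.15, 0.195 and 0.108. A second probe set of Litaf had a change of 0.20. The summed signal of 16 genes of macrophages and granulocytes was 6153 to 8474 in day 4 ileum and 4263 to 5298 in day 1 ileum, without overlap, and 0 of the 16 passed the test. Their median change was 0.22 (0.09 without day 4 replicate 2), beside 0.02 for all genes. All day 4 arrays were above all day 1 arrays in 2 of the 16 (12.5%), beside 12.4% of all genes. They were all below in 1 (6.25%), beside 9.92% of all genes. Members of that list with wider expression were Lgals3, a galectin, and Cyba, a subunit of the NADPH oxidase, with 475, 2239 and 957 and 1931, 1571 and 1294 in day 4 ileum, against 449, 555 and 608 and 589, 1279 and 805 in day 1 ileum. The part of these cells in the rise of Capg and Litaf was not tested.

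Rph3al, an effector of Rab3 and Rab27 in regulated secretion, had 117, 179 and 99.7 in day 4 ileum, against 49.4, 38.4 and 44.1 in day 1 ileum. B3galt5, which adds galactose to the sugar chains of mucosal glycoproteins and glycolipids, had 98.7, 77.2 and 89.9 in day 4 ileum, against 33.5, 24.4 and 28.2 in day 1 ileum. Krt18, the type I keratin of simple epithelia, had 2405, 3189 and 2484 in day 4 ileum, against 1419, 1191 and 1382 in day 1 ileum. In each of these genes all day 4 arrays lay above all day 1 arrays. Their rises were 2.63-fold, 2.63-fold and 2.01-fold (limma adjusted p = 0.0258, 0.0297 and 0.0325), and without day 4 replicate 2 the changes were 1.16, 1.48 and 0.88 on the log2 scale at adjusted p of 0.234, 0.108 and 0.252. Second probe sets of Rph3al and Krt18 had changes of 1.32 and 1.05, close to those of the sets used. Beside Rph3al, the summed signal of 12 enteroendocrine genes was 2137 to 2795 in day 4 ileum and 2107 to 2312 in day 1 ileum, and 0 of the 12 passed the test.

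**Figure D1:**
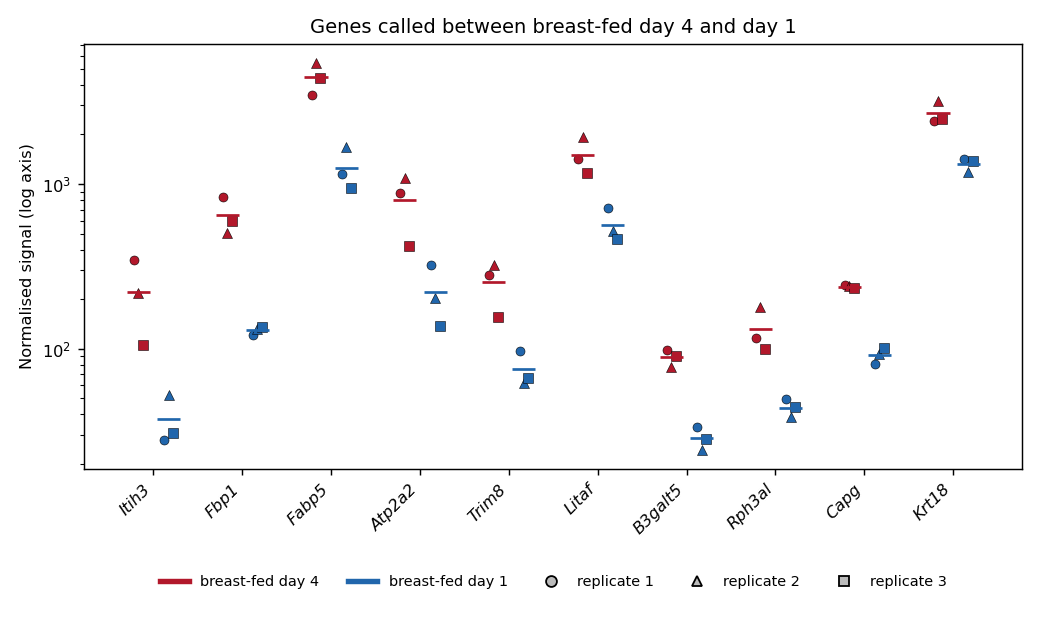
Normalised signal (log axis) of the 10 called genes in each array of breast-fed ileum on day 4 (red) and day 1 (blue); symbols mark the replicate and bars the mean of 3 arrays. In each gene all 3 day 4 arrays lie above all 3 day 1 arrays, with the widest gap in Fbp1 and the narrowest in Atp2a2.

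The arrays of days 2 and 3 did not enter the means compared, although they shared in the normalisation and the estimate of the spread. All 10 called genes had a higher mean on day 3 than on day 2, whereas 51.0% of all genes did. The count was also 10 of 10 (49.9% of all genes) when day 4 replicate 2 and day 3 replicate 3, which had lost 69 abundant probe sets, were left out. The step from day 2 to day 3 passed the test in 3 of all genes (0.0942%, with 0.0628% higher and 0.0314% lower), and in none of these 10. The course differed between genes. Fabp5 averaged 1257 on day 1, 4075 on day 2, 4259.6 on day 3 and 4441 on day 4, with nearly all of its rise by day 2. Capg averaged 91.2, 114, 274 and 238 on days 1 to 4, and its step lay between days 2 and 3. Fbp1 averaged 129, 163, 288 and 646, with its largest step at the end. Itih3 averaged 37.2, 45.8, 80.2 and 222 on the same days, likewise with the largest step at the end.

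**Figure D2:**
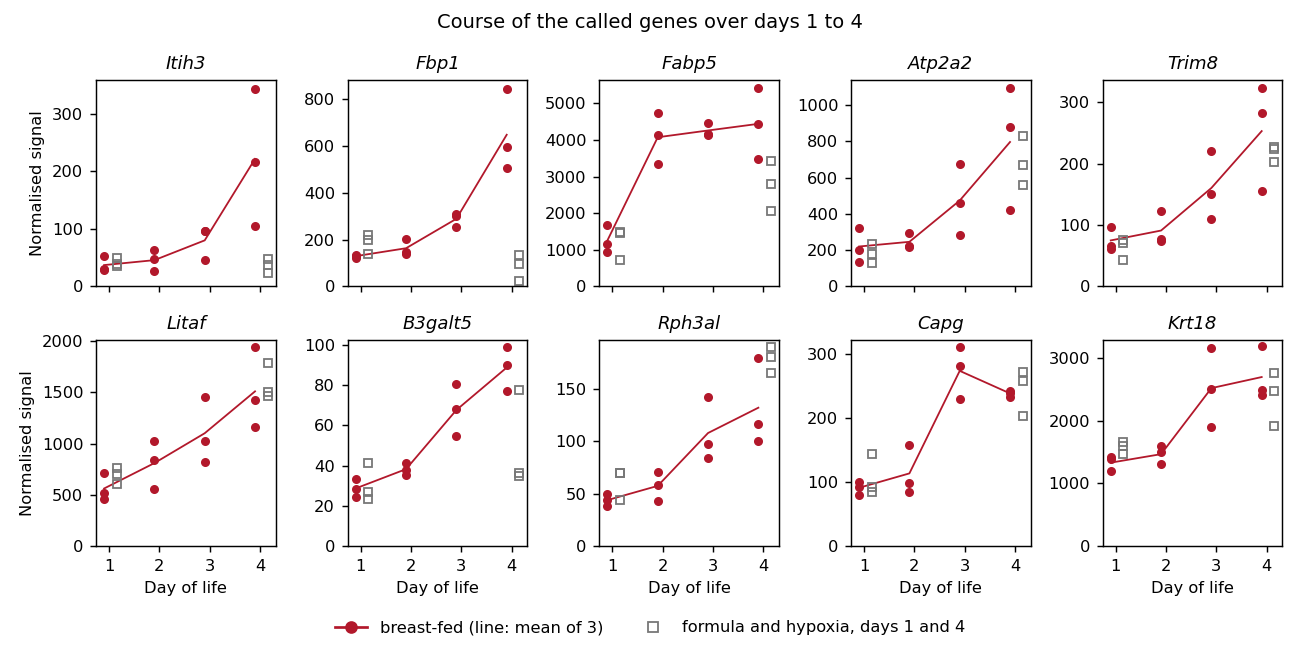
Normalised signal of the 10 called genes (linear axis from 0) by day of life in breast-fed pups (red points, line through the mean of 3 arrays), with the formula and hypoxia arrays of days 1 and 4 as open grey squares. Fabp5 reaches its later level by day 2, Capg and Krt18 by day 3, and Fbp1 and Itih3 are highest on day 4, where the formula and hypoxia arrays stay low.

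Pups given formula and hypoxic stress, whose 2 treatments came together, provided the same interval on other arrays. There 427 of 3185 genes passed the test (13.4%), 211 higher (6.62%) and 216 lower (6.78%) on day 4, and the count was 151 without formula day 4 replicate 1 and 275 without formula day 1 replicate 1. Of the 10 genes that rose under breast feeding, 6 also rose under formula and hypoxia: Atp2a2 by 1.90, Trim8 by 1.71, Rph3al by 1.45, Fabp5 by 1.21, Litaf by 1.19 and Capg by 1.15 on the log2 scale (limma adjusted p between 0.00155 and 0.0113). Krt18 and B3galt5 had changes of 0.58 and 0.53 there without passing the test (adjusted p = 0.0786 and 0.264). In all, 8 of the 10 genes and 70.4% of all genes had the same direction in both regimens.

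The change itself differed between the regimens in 5 genes (0.157% of 3185, with 4 differences or 0.126% above 0, 1 or 0.0314% below 0, and 225 at an unadjusted p under 0.05), 2 of which were among the 10. Fbp1 fell under formula and hypoxia to 25.4, 96.0 and 134 on day 4, against 218, 197 and 137 on day 1, a change of -1.26 on the log2 scale (limma adjusted p = 0.0452). The difference between the breast-fed change and this one was 3.48 (95% confidence interval 2.27 to 4.69, adjusted p = 0.0116). Itih3 had 38.0, 48.5 and 23.3 on day 4 of formula and hypoxia, against 39.9, 49.6 and 34.8 on day 1 (adjusted p = 0.799). Its difference between regimens was 2.42 (95% confidence interval 1.40 to 3.43, adjusted p = 0.0303).

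Of the other 3 genes, none passed the test under breast feeding alone. Cd1d1, which presents lipids to natural killer T cells, had 239, 356 and 277 in breast-fed ileum on day 4, against 193, 208 and 208 on day 1, and 139.7, 104 and 154 under formula and hypoxia on day 4, against 416, 363 and 282 on day 1. Bex3, a small adaptor protein known from neurotrophin receptor signalling, had 780.5, 831 and 716 in breast-fed ileum on day 4, against 764, 881 and 1051 on day 1, and 346, 386 and 305 under formula and hypoxia on day 4, against 1261, 993 and 1097 on day 1. Me1, the cytosolic malic enzyme that supplies NADPH to fatty acid synthesis, had 62.3, 62.1 and 87.9 in breast-fed ileum on day 4, against 173, 119 and 66.1 on day 1, and 97.4, 207 and 336 under formula and hypoxia on day 4, against 41.9, 36.3 and 39.4 on day 1. The first 2 thus fell and Me1 rose under formula and hypoxia (limma adjusted p = 0.00109, 3.98e-05 and 0.00155). The differences of the changes were 1.85, 1.47 and -2.69 on the log2 scale (adjusted p = 0.0141, 0.0258 and 0.0283). The 4 other probe sets of Me1 had breast-fed changes of 0.17, -0.11, 0.36 and -0.34, beside -0.62 for the set used. Without breast-fed day 4 replicate 2 the difference was 3.63 for Fbp1 (adjusted p = 0.0156), and those of Itih3, Cd1d1, Bex3 and Me1 were 2.36, 1.69, 1.42 and -2.61 without passing the test (adjusted p between 0.0874 and 0.108). The count of 5 was 1 without breast-fed day 4 replicate 2 or without breast-fed day 1 replicate 1, 2 without breast-fed day 4 replicate 1, formula day 4 replicate 3 or formula day 1 replicate 1, 3 without formula day 1 replicate 2 and 8 without formula day 1 replicate 3.

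**Figure D3:**
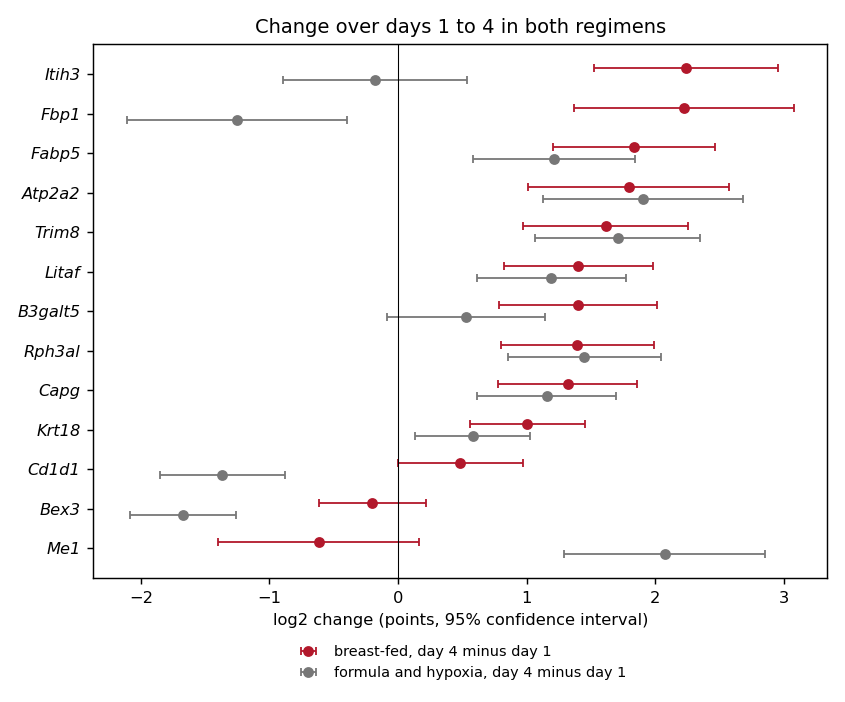
Change on the log2 scale (points) with 95% confidence intervals (bars) for the 10 called genes and the 3 further genes called in the difference between regimens, in breast-fed pups (red, day 4 minus day 1) and under formula and hypoxia (grey, day 4 minus day 1). The intervals of the 2 regimens lie apart for Itih3, Fbp1, Cd1d1, Bex3 and Me1.

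Apart from Fabp5, the genes of fat absorption did not pass the test. Of 21 genes of fat absorption and lipoproteins 1 rose and 0 fell, with a median change of 0.03 on the log2 scale beside 0.02 for all genes. Fabp1, the liver-type fatty acid carrier, had 1059, 1443 and 392 in day 4 ileum, against 4789, 6859 and 6967 in day 1 ileum. Its day 4 arrays were all far below its day 1 arrays and varied widely. The change of Fabp1 was -2.85 on the log2 scale, at a limma adjusted p of 0.0834 (0.162 without day 4 replicate 2). The spread in that test was estimated over all groups. With array weights, which give less weight to arrays that deviate, its change was -3.23 at an adjusted p of 0.00603. Fabp1 averaged 858 on day 2 and 1561 on day 3, near the day 4 values. Acsl5, a mitochondrial acyl-CoA synthetase of enterocytes, had 1679, 1124 and 879 in day 4 ileum, against 2961, 2282 and 2062 in day 1 ileum, a change of -1.02 (adjusted p = 0.151). Rbp2, the cellular retinol carrier of the enterocyte, had 2144, 3011 and 1428 in day 4 ileum, against 3614, 4074 and 4586 in day 1 ileum, a change of -0.95 (adjusted p = 0.118). In all 3 genes the groups did not overlap. Fabp2, the intestinal fatty acid carrier, had overlapping groups at 4636, 6749.9 and 5611 in day 4 ileum and 3953, 5341 and 5571 in day 1 ileum, and Apoa1, the main protein of high-density lipoprotein, had 8026, 10851 and 8226 and 5028, 7431 and 7575 in the same order of days, without overlap (change 0.45, adjusted p = 0.304).

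Among the 40 lists with 7 or more genes tested, cholesterol synthesis had the lowest median change. Of 16 genes tested 0 passed the test, and the median change was -0.56 on the log2 scale (-0.53 without day 4 replicate 2), beside 0.02 for all genes. The estimate was below 0 in 14 of the 16, and in 5 of them (31.2%) all day 4 arrays were below all day 1 arrays, as in 9.92% of all genes. Fdps, which makes farnesyl diphosphate, had 362, 428 and 404 in day 4 ileum, against 984, 697 and 749 in day 1 ileum, a change of -0.999 (adjusted p = 0.0774). Acat2, the cytosolic thiolase that starts the pathway, had 454, 442 and 466 in day 4 ileum, against 1054, 556 and 852 in day 1 ileum, a change of -0.80 (adjusted p = 0.14). Fdft1, squalene synthase, had 124, 159.9 and 246 in day 4 ileum, against 276, 302 and 317 in day 1 ileum. These are steps before and at the branch to sterols, and none of the 3 had overlapping groups. Cyp51, which demethylates lanosterol, had 239, 2.001 and 379.8 in day 4 ileum, against 718, 403 and 622 in day 1 ileum, so that most of its change of -2.54 came from day 4 replicate 2 (change -0.89 without it). Mvk, mevalonate kinase, was one of the genes with an estimate above 0, with 65.3, 49.5 and 40.7 in day 4 ileum and 36.2, 18.2 and 35.5 in day 1 ileum. Within the second accession run the median of the list was -0.15, and day 1 replicate 2 had the lowest day 1 signal of Fdps, Acat2 and Cyp51.

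Fatty acid synthesis showed no common direction over its 7 genes tested, of which 0 passed. Scd2, a desaturase that makes monounsaturated fatty acids, had 97.8, 165 and 135 in day 4 ileum, against 1092, 153 and 390.4 in day 1 ileum. The spread of the day 1 arrays was thus larger than that of day 4 and reached into it (change -1.58, adjusted p = 0.117). Acly, which makes cytosolic acetyl-CoA from citrate, had 591, 589 and 419 in day 4 ileum, against 343, 278 and 208 in day 1 ileum (change 0.94, adjusted p = 0.19). Elovl5, an elongase of polyunsaturated fatty acids, had 274, 382 and 284 in day 4 ileum, against 249.99, 178 and 165 in day 1 ileum (adjusted p = 0.19).

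**Figure D4:**
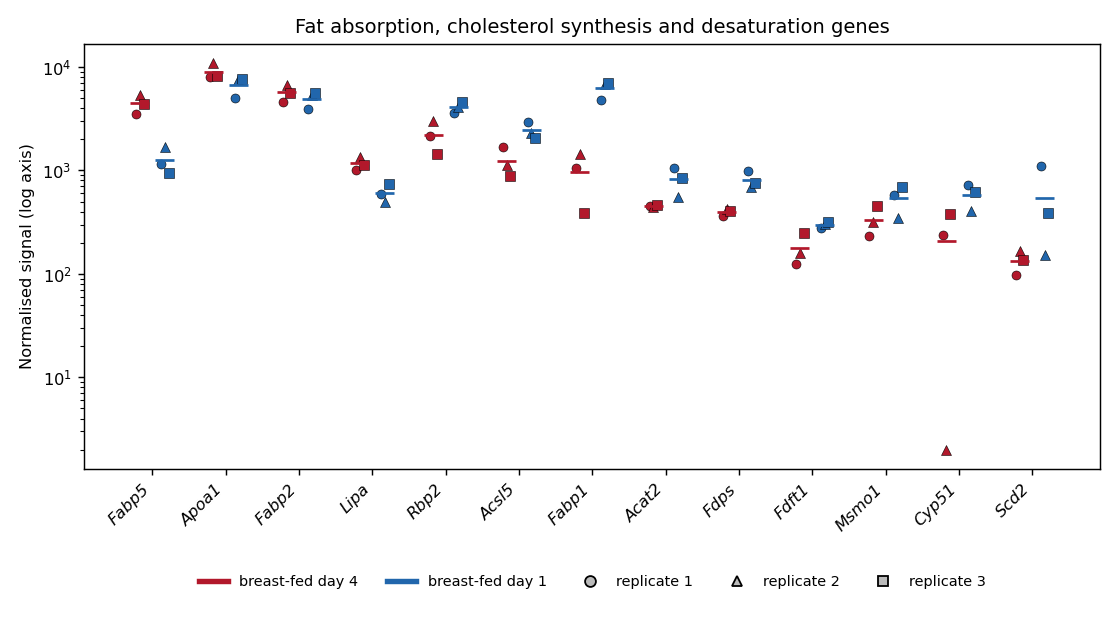
Normalised signal (log axis) of 13 genes of fat absorption, cholesterol synthesis and desaturation in each array of breast-fed ileum on day 4 (red) and day 1 (blue), with bars at the mean of 3 arrays. Fabp5 rose, Fabp1, Acsl5, Rbp2, Acat2, Fdps and Fdft1 have all day 4 arrays below day 1 without passing the test, and Cyp51 has 1 day 4 array near 0.

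The endocytic and lysosomal genes, which serve the uptake and breakdown of milk proteins, had a median change above that of all genes. Of 31 genes 0 passed the test, the median change was 0.28 (0.26 without day 4 replicate 2), and in 9 (29.0%) all day 4 arrays were above all day 1 arrays, as in 12.4% of all genes. Fcgrt, the neonatal Fc receptor that carries maternal IgG across the epithelium, had 1575, 1023 and 744 in day 4 ileum, against 517, 657 and 565 in day 1 ileum (change 0.87, adjusted p = 0.219). Cubn, the endocytic receptor cubilin, had 253, 124 and 107 in day 4 ileum, against 91.1, 44.8 and 34.0 in day 1 ileum (change 1.39, adjusted p = 0.121). Both receptors were highest on day 4 replicate 1. B2m, the light chain that the Fc receptor shares with class I molecules, had overlapping groups at 3089.8, 4229.9 and 3742 in day 4 ileum and 2887, 3338 and 3479 in day 1 ileum.

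Among the enzymes of the lysosome, Ctsl, cathepsin L, had 9299, 9642 and 8399 in day 4 ileum, against 5949.5, 6792 and 6910.2 in day 1 ileum. Lipa, the acid lipase that splits cholesteryl esters and triglycerides, had 1008, 1363 and 1141 in day 4 ileum, against 595, 497 and 742 in day 1 ileum. Fuca1, which removes fucose from glycans, had 2564, 3494 and 2452 in day 4 ileum, against 1428, 1564 and 2071 in day 1 ileum. Their changes of 0.48, 0.94 and 0.75 on the log2 scale did not pass the test (adjusted p = 0.284, 0.19 and 0.118), although the groups did not overlap. Atp6v0a1, a subunit of the proton pump that acidifies these compartments, had 238, 209 and 142 in day 4 ileum, against 126, 79.7 and 80.8 in day 1 ileum. Cst3, a secreted inhibitor of cathepsins, had 7974, 6109.8 and 7125 in day 4 ileum, against 3742, 4724 and 4074 in day 1 ileum, and Cd63, a membrane protein of late endosomes, had 3538, 3706 and 3978 and 2346, 2730.0 and 2825 in the same order of days. Ctsb, cathepsin B, had overlapping groups at 3319.9, 2810.0 and 1669 in day 4 ileum and 1622, 1616 and 1809.7 in day 1 ileum. The summed signal of the list was 45344 to 54745 in day 4 ileum and 35672 to 39475 in day 1 ileum, without overlap.

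Of 15 junction and adhesion genes 1 rose, Krt18, as did 0.314% of all genes, with a median change of 0.26 for the list. The estimate was above 0 in 11 of the 15 and below 0 in 4. In 3 (20%) all day 4 arrays were above all day 1 arrays, beside 12.4% of all genes. Krt8, the type II partner of Krt18, had 3355, 5227 and 5315 in day 4 ileum, against 2536, 2593 and 3244 in day 1 ileum (change 0.71, adjusted p = 0.195). Krt19 had 1878, 2006 and 1137 in day 4 ileum, against 1002, 705 and 869.5 in day 1 ileum (change 0.93, adjusted p = 0.121). Both had groups that did not overlap. Muc13, a membrane mucin of the epithelial surface, had 1988, 2536 and 1904 in day 4 ileum, against 1044, 831 and 1153 in day 1 ileum (change 1.08, adjusted p = 0.313).

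Of the genes of gluconeogenesis and fructose handling, 1 of 13 rose, Fbp1, and the median change of the list was -0.14. On the deposited scaling the list's median became 0.18, still below that of all genes, which was 0.32 there. Brush border enzymes and uptake transporters included 0 of 16 and 0 of 12 genes past the test. Ggt1, the surface peptidase that splits glutathione, had 246, 327 and 255 in day 4 ileum, against 163, 14.3 and 47.2 in day 1 ileum, with a wide spread on day 1 (change 2.24, adjusted p = 0.118). Anpep, aminopeptidase N, had 3371, 2305 and 1177 in day 4 ileum, against 1416, 918 and 813 in day 1 ileum, and Alpi, intestinal alkaline phosphatase, had 2199, 1349.5 and 993 and 1159.7, 534 and 914 in the same order of days. Slc5a1, the sodium-coupled glucose transporter, had 450.4, 295 and 391 in day 4 ileum, against 835, 525 and 553 in day 1 ileum (change -0.73, adjusted p = 0.349). Anpep and Alpi had overlapping groups, whereas Ggt1 did not, and all day 4 arrays of Slc5a1 were below those of day 1. Atp1b1, the beta subunit of the sodium pump, had 5477, 5315 and 3225 in day 4 ileum, against 3494, 1382 and 1642 in day 1 ileum (change 1.18, adjusted p = 0.189). Fabp6, which carries bile acids in ileal enterocytes, had 1327, 709 and 1110.1 in day 4 ileum and 599.9, 899 and 603 in day 1 ileum. The change of this probe set was 0.56, while the other probe set of Fabp6 had a change of 2.68.

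The newborn gut makes citrulline and arginine from glutamine, and 0 of 16 genes of that metabolism passed the test. Otc, ornithine transcarbamylase, had 671, 741 and 682 in day 4 ileum, against 1479, 1026 and 1314 in day 1 ileum, a change of -0.85 with groups that did not overlap (adjusted p = 0.118). Ass1, argininosuccinate synthetase, had 2650.4, 2378 and 1571 in day 4 ileum, against 1931, 468 and 821 in day 1 ileum, where replicate 1 reached into the day 4 range (change 1.24, adjusted p = 0.205). Oat, ornithine aminotransferase, had 5611, 6439.9 and 5949.5 in day 4 ileum and 4176, 3371 and 4814 in day 1 ileum, without overlap, and Cps1, carbamoyl phosphate synthetase, had 2839, 4345 and 2906 and 4009.7, 2434 and 1599 in the same order of days, with overlap.

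Ribosomal and mitochondrial genes had medians below 0 and 0 genes past the test. For 38 cytosolic ribosomal proteins the median change was -0.25 (-0.29 without day 4 replicate 2), which became 0.02 on the deposited scaling, where the median of all genes was 0.32. All day 4 arrays were below all day 1 arrays in 9 of the 38 (23.7%), as in 9.92% of all genes. Rps15 had 3584, 3742 and 4119.9 in day 4 ileum, against 6509.8, 5499 and 6048 in day 1 ileum (change -0.66, adjusted p = 0.104), and Rplp0 had 6792, 4975 and 4473 and 7575, 7710.0 and 7647 in the same order of days. For 33 genes of oxidative phosphorylation the median was -0.43 and -0.32 without day 4 replicate 2. That array had lost 5 of the 33, among them Cox4i1 and Cox7b, subunits of cytochrome oxidase. Also lost, outside this list, were the NADH dehydrogenase genes Ndufab1, Ndufb6, Ndufb9, Ndufs6 and Ndufs8. Cox4i1 had 6439.9, 97.9 and 5477 in day 4 ileum, against 5411, 5379 and 6370.4 in day 1 ileum, and without the array its change was 0.06 in place of -1.88. The glutathione peroxidases Gpx1 and Gpx4 were lost in the same way, with 6011, 50.4 and 4975 and 2443, 32.2 and 2331 in day 4 ileum, against 4038, 4975 and 3409 and 2749, 3173 and 2580.2 in day 1 ileum. The 25 lost genes were chosen for a low signal on this array, which favours an estimate below 0 with it, and all 25 had one. Without the array 14 had an estimate below 0, and their median was -1.88 with it and -0.20 without it.

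Of all 34 antioxidant genes, the lost ones included, and of 28 heat shock and chaperone genes, 0 passed the test. Gpx3, the secreted glutathione peroxidase, had 8137, 3564 and 5861 in day 4 ileum, against 1543, 2943 and 1669 in day 1 ileum (change 1.49, adjusted p = 0.0745, and 1.81 at 0.0663 without day 4 replicate 2). Hmox1, the inducible heme oxygenase, had 601, 429.6 and 456 in day 4 ileum, against 3514, 3514 and 427 in day 1 ileum, so that 2 of the 3 day 1 pups were high and the third lay just below the day 4 values (change -1.82, adjusted p = 0.14). The other probe set of Hmox1 had a change of -3.96. Pdia3, a disulfide isomerase of the endoplasmic reticulum, had 1662, 1559 and 1599 in day 4 ileum, against 734, 505 and 514 in day 1 ileum. Hspa5, the chaperone BiP, had 930.2, 1988 and 1836 in day 4 ileum, against 839.7, 526 and 660.2 in day 1 ileum, and Calr, calreticulin, had 2123, 1594 and 1291 and 1036, 1242 and 696 in the same order of days. None of the 3 passed the test (limma adjusted p between 0.227 and 0.381), and another probe set of Calr had a change of -1.98. Hsp90b1, the related chaperone of the endoplasmic reticulum, had overlapping groups at 1074, 785 and 585 in day 4 ileum and 692, 496 and 448 in day 1 ileum. Of the 28 genes, all day 4 arrays were above those of day 1 in 6 and below them in 4, where 12.4% and 9.92% of all genes had such arrays. The median change of the heat shock and chaperone list was 0.05 with day 4 replicate 2 and 0.43 without it. Jun, a transcription factor of the immediate early response, had 179, 98.6 and 97.5 in day 4 ileum, against 47.7, 10.4 and 29.8 in day 1 ileum (change 1.92, adjusted p = 0.124), while its 3 other probe sets had changes of -0.51, -0.23 and 0.45, and 0 of 31 genes of its list passed.

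Of 42 matrix and fibroblast genes 0 passed the test, with a median change of 0.13, and in 8 (19.05%) all day 4 arrays were above those of day 1, as in 12.4% of all genes. Col1a2, a chain of type I collagen, had 1339, 1169 and 746 in day 4 ileum, against 381, 365 and 312 in day 1 ileum (change 1.56, adjusted p = 0.0737). Col5a1, of type V collagen, had 229, 217 and 91.5 in day 4 ileum, against 63.8, 86.3 and 51.3 in day 1 ileum (change 1.24, adjusted p = 0.121). Both collagens stood apart between the days, unlike Col1a1, the partner chain of Col1a2, with 2006, 2062 and 1269 in day 4 ileum and 2580.2, 1017 and 541 in day 1 ileum. Pdgfra, a growth factor receptor of mesenchymal cells, had 155, 290.1 and 160.0 in day 4 ileum, against 117, 91.8 and 73.1 in day 1 ileum (adjusted p = 0.133), and Sparc, a matrix protein, had 2605, 2395 and 4176 and 6148, 6048 and 3978 in the same order of days, with overlap. The change of Sparc was -0.83, while its 3 other probe sets had changes of 0.57, 0.36 and 0.61. Of the 79 genes examined individually 45 had another probe set, and in 14 of these at least 1 such set had the opposite sign, among them Anpep (1.03, with -0.99 and -0.51 for the others).

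Itih3 belongs to the proteins of liver and fetal serum. Of 17 such genes 1 rose, Itih3, and the median change was 0.09, with a summed signal of 6452 to 8645 in day 4 ileum and 6886 to 7017 in day 1 ileum. Afp, the fetal serum protein that the newborn gut also makes, had 3742, 1679 and 3071 in day 4 ileum, against 1564, 868 and 626 in day 1 ileum. Its groups did not overlap, and its change of 1.49 had an adjusted p of 0.243. Igf2, the fetal growth factor, had 5135, 3208 and 2778 in day 4 ileum, against 2564, 2564 and 1061 in day 1 ileum (change 0.90, adjusted p = 0.287). The part of other tissue in the rise of Itih3 was not tested.

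Markers of further cell types included 0 genes past the test. For 11 red cell genes the median change was -0.37, with a summed signal of 12276 to 14791 in day 4 ileum and 14116 to 16891 in day 1 ileum. The adult beta globins Hbb and Hbb-b1 had changes of -0.20 and -0.27 that became 0.20 and 0.0027 on the deposited scaling, where the median of all genes was 0.32. The medians on that scaling given below were also under 0.32. Hbe1, an embryonic globin, had 10.7, 21.8 and 25.6 in day 4 ileum, against 69.7, 54.6 and 55.9 in day 1 ileum. Mast cells had a median of -0.12 over 11 genes and no gene whose groups did not overlap, and that median was 0.15 on the deposited scaling. The medians were 0.05 for 13 lymphocyte genes, 0.03 for 27 genes of enteric neurons and glia, -0.12 for 8 genes of goblet and Paneth cells and -0.26 for 7 endothelial genes, of which the last 2 became 0.14 and 0.04 on the deposited scaling. Without day 4 replicate 2 the medians turned to -0.03 for lymphocytes and 0.15 for endothelium. For tissue that a dissection could carry along, the medians were -0.10 over 9 genes of exocrine pancreas (0.19 on the deposited scaling and 0.074 without day 4 replicate 2) and -0.34 over 11 genes of fat tissue. Members of these lists with wider expression were Zg16 and Fabp4. Zg16 had 89.4, 308 and 80.5 in day 4 ileum, against 162, 419 and 238 in day 1 ileum. Fabp4 had 44.98, 196 and 318, against 252, 221 and 295 in the same order of days. The part of carried tissue in these signals was not tested.

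**Figure D5:**
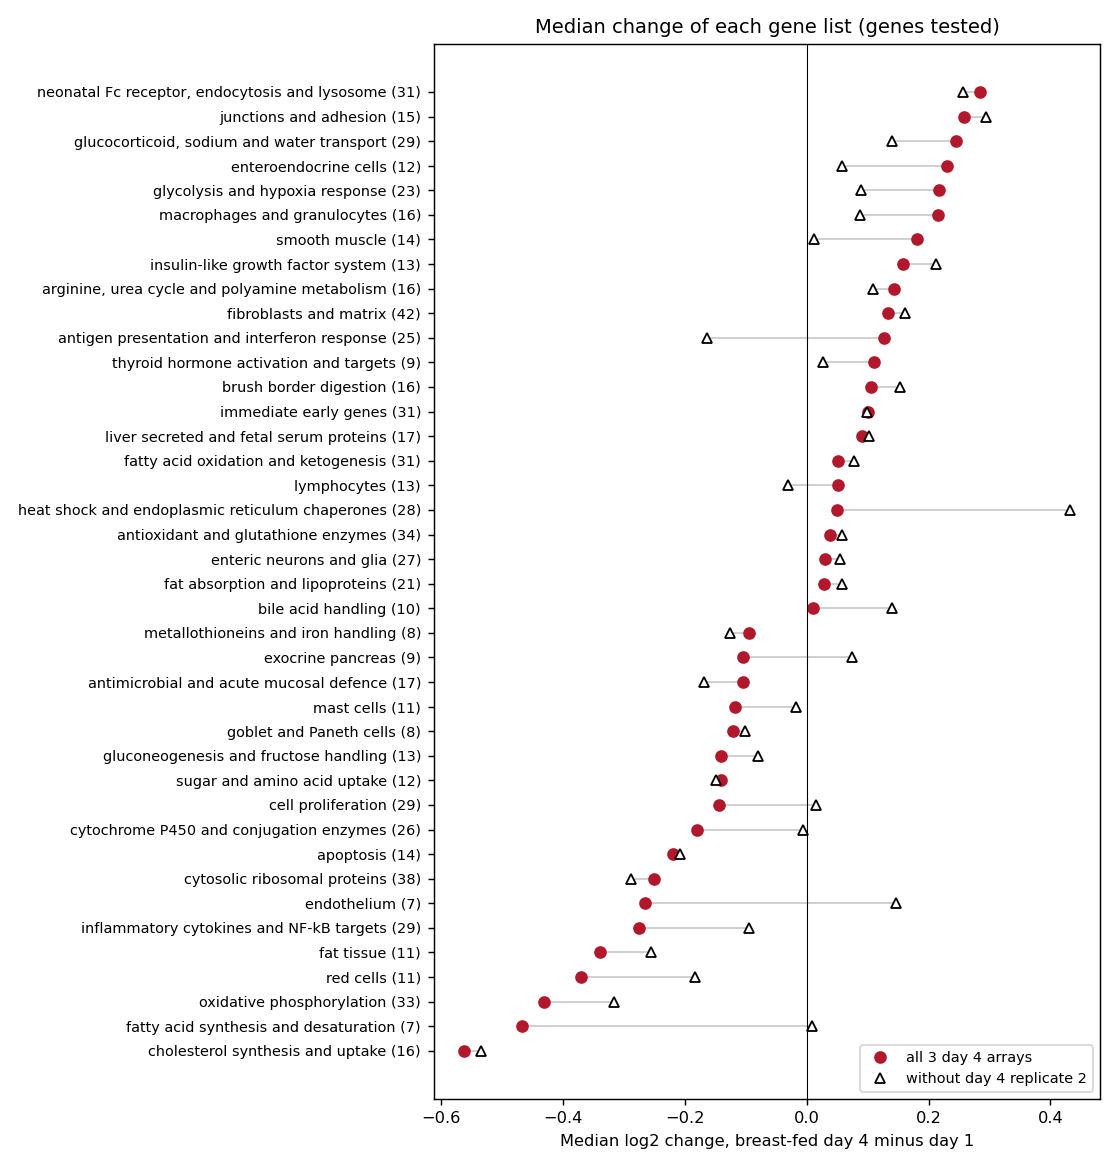
Median change on the log2 scale, day 4 minus day 1 of breast-fed pups, of the 40 gene lists with 7 or more genes tested (number in brackets), with all arrays (red points) and without day 4 replicate 2 (open triangles). With all arrays the medians run between -0.56 for cholesterol synthesis and 0.28 for the endocytic and lysosomal genes, which without that array lie below chaperones (0.43) and junctions (0.29); 6 change sign without that array, and 13 that lie below 0 here lie above 0 on the deposited scaling, which shifted the median of all genes to 0.32.

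When each of the 8740 probe sets was tested by itself, with no filter on dim signal, 25 were called (0.286%), 20 higher (0.229%) and 5 lower (0.0572%). The 10 genes above were among them. Of the 5 lower probe sets, 1 was a second probe set of Acsl5 with 534, 304 and 282 in day 4 ileum, against 1700.0, 1054 and 1127 in day 1 ileum. Its change of -1.80 on the log2 scale (limma adjusted p = 0.0351) was larger than the -1.02 of the brighter probe set used above. A dim probe set of Rfc1, the large subunit of replication factor C, fell with 18.8, 10.5 and 22.7 in day 4 ileum, against 49.4, 39.9 and 50.6 in day 1 ileum. The other 3 had no gene name in the tables used here, and the probe sets U49930_at and U84410_s_at among them fell by 2.81 and 2.41 on the log2 scale (adjusted p = 0.0335 for each). Further probe sets that rose belonged to C3, the central complement protein, with 657, 738 and 353 in day 4 ileum, against 113, 124 and 5.32 in day 1 ileum, and to Mapt, Ptpra, Rsad2 and Hacl1 at signals under 100. None of these sets stood for its gene in the test of 3185 genes, and none of these genes was called there. Probe sets without a gene name rose as well, the brightest of them rc_AI169802_at. It had 4300, 4850 and 4300 in day 4 ileum, against 2258, 2100 and 2031 in day 1 ileum. Its change was 1.07 on the log2 scale (limma adjusted p = 0.00905), and 1.02 without day 4 replicate 2 (adjusted p = 0.0592). Without day 4 replicate 2 a single probe set was called (0.0114%), and it was none of these 25.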

How the data were processed

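Total RNA of terminal ileum, 1 array per pup, had been hybridised to an Affymetrix rat array. The deposited values were probe set intensity on a linear scale, and what software, background correction and summary the authors used is not given here by any source. From the values, arrays had been scaled to a common trimmed mean, except day 4 replicate 1 (209.2) and day 1 replicate 2 (109.2) of the breast-fed pups (others of the 6 between 150.2 and 150.3). Intensities were quantile normalised over 28 arrays, a pseudocount of 8 was added and log2 taken. Fold changes are thus of signal plus 8, which understates those of dim genes. Probe sets with a mean above the 40th percentile (signal 24.0) were kept (5244), and the probe set with the highest mean stood for each gene, giving 3185 genes of 4736 with 1 symbol in the platform annotation. This left 308 probe sets with several symbols and 1426 with none unnamed.

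All 28 arrays entered a linear model of the 9 groups in limma 3.58.1 under R 4.3.3 (19 residual degrees of freedom, intensity trend, two-sided, Benjamini-Hochberg adjustment over all genes, call at adjusted p under 0.05), and the procedure was tested on simulated data. All adjusted p-values are from limma. The numbers of arrays limit the precision. The labels do not say whether pups came from separate litters. Named were the called genes (up to 12 each way, first those without overlap that were also called without day 4 replicate 2), the called and the 3 brightest uncalled genes of 42 gene lists, as far as space allowed, and up to 6 genes each way called in the difference between regimens. Cyp51, Fdft1, Mvk, Fabp1, Acsl5, Lipa, Cubn, Fcgrt, Fuca1, Atp6v0a1, Ggt1, Gpx3, Gpx4, Col1a2, Col5a1, Pdgfra, Jun, Otc, Rps15, Rplp0, Cox7b, Hbe1, Lgals3, Cyba, Elovl5, Ctsb, Fabp6, Hsp90b1, Hspa5, Pdia3, Calr and the probe sets of the unfiltered test were chosen after their values were seen. The comparison and the lists were chosen with earlier results of these data known. Alternatives were the scaling, pseudocount, filter, probe set choice, arrays and groups in the fit, array weights, the accession run and the replicate number as a block.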

Additional observations from a re-analysis of the deposited data

Results flagged for a closer look

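The change of day 4 against day 1 differed between breast feeding and formula with hypoxia in 5 genes by the test of the difference itself. The difference, breast-fed change minus the change under formula and hypoxia, was 3.48 on the log2 scale for Fbp1, 2.42 for Itih3, 1.85 for Cd1d1, 1.47 for Bex3 and -2.69 for Me1 (limma adjusted p = 0.0116, 0.0303, 0.0141, 0.0258 and 0.0283). For Fbp1 and Itih3 the breast-fed arrays of day 4 were the high ones, while Cd1d1 and Bex3 fell and Me1 rose under formula and hypoxia without passing the test under breast feeding. Without breast-fed day 4 replicate 2 only Fbp1 passed this test (difference 3.63, limma adjusted p = 0.0156). Groups of 3 arrays were too small to look for single outlying arrays by the gap to the nearest other.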

How the results depend on the processing

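The count of genes called between day 4 and day 1 was 10. It was 149 on the deposited scaling (147 higher and 2 lower, with the median of all genes at 0.32), 112 with array weights (74 higher, 38 lower), 25 over all non-control probe sets, 19 with a test per kept probe set (12 higher, 7 lower), 3 without the pair of arrays with lost probe sets, 2 with only the 6 arrays compared (1 higher, 1 lower), 2 with the accession run as a term, 0 within the second run and 2 without both arrays of deviating scaling, an alternative chosen after seeing the data. Leaving out 1 array gave 2 to 33. Between 7 and 11 genes were called with a common median, other pseudocounts, filters or no intensity trend. The count for the difference between regimens was 5, and it was 9 on the deposited scaling, 3 with a common median, 0 by limma with only the groups compared (232 at an unadjusted p under 0.05), 20 with array weights, 1 without the pair of arrays with lost probe sets and 2 without both of deviating scaling. It ran between 1 and 8 with 1 array left out. The 427 genes under formula and hypoxia became 720 with array weights and 151 to 361 with 1 array left out. Same-numbered replicates of the days did not deviate together (correlations 0.085, -0.067 and 0.048). With 3 arrays a group such values cannot tell whether the numbers mark pairs. With the replicate block 9 genes were called and Krt18 was lost. The sign turned for Bex3 (0.093), Hbb (0.20) and Hbb-b1 (0.0027) on the deposited scaling, for Cox4i1 (0.058 each) and Gpx1 (0.42 each) without day 4 replicate 2 or that pair (leaving out 1 array gave -2.91 to 0.058 for Cox4i1 and -2.93 to 0.42 for Gpx1), and for none of the 10 called genes under the settings run (8 of the 10 were tested with the 60th percentile filter). The causes were not tested. Signal over background could not be judged, since no detection calls were used.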
